A study of Mus musculus with 14 samples.

Results

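The narrow regions described here are the autosomal regions of chromatin accessibility whose end minus start was under 200 bases. They were selected by chromosome and width, from the 191271 regions (mm9) at which all libraries were measured, and number 16141, or 8.44% of them. Region ends are drawn from reads, so this selection may not be independent of the values compared. Their widths ran from 83 to 199 bases with a median of 166, against a median of 520 for the whole list. They were set against the 55712 autosomal regions of 400 to 700 bases, whose median width was 531 and which are called the wide regions below. Another 492 regions under 200 bases lay outside the autosomes, 482 of them on X, 4 on Y and 6 on unplaced sequence, and were not members.

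The assay was ATAC-seq, whose transposase inserts sequencing adapters preferentially where DNA lies free of nucleosomes. It was run on neuronal nuclei sorted from mouse hippocampus after staining for NeuN, Arc and GFP. All mice were a cross of ArcCreERT2 with R26R-STOP-floxed- yellow fluorescent protein (eYFP) with the genotype label +/+, had received 4-Hydroxytamoxifen 1 h before contextual fear conditioning, and had a foot shock on day 0. Cre is driven from Arc, a gene induced by neuronal activity, so the eYFP reporter marks neurons in which Arc was active near the time of tamoxifen. Early (n = 3 libraries) was collected on day 0 without recall. Late (n = 4) was collected on day 5 without recall. Reactivated (n = 3) had recall on day 5, and its replicates 1, 2 and 3 are labelled as collected on days 5, 6 and 7. Basal (n = 4) carries the same treatment label as Early, and the labels do not say what sets its nuclei apart. Tissue of several mice was pooled per sample and no age is given, so p-values measure only the spread between libraries, which may be partly technical.

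Open chromatin comes in stretches of different length, and active promoters and enhancers, where transcription factors displace nucleosomes, are its main sites. In neurons many enhancers open or close with activity. The ends of a listed region are drawn by a peak caller from reads, so width is a property of the list as well as of the chromatin. No gene names accompany the regions, so members are named by position.

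Levels are given as RPKM (reads scaled by region length and by the library's total) divided by the median RPKM of the library over all 191271 regions, so that a level of 1 is the library's typical region. Reads behind the values could be recovered from the RPKM steps. Totals were 46134255 to 56251679 per library, of which 13.2% to 27.8% fell in regions, and the median narrow region held 9 to 13 reads in a library against 25 to 47 for the median of all regions. Counting error alone is therefore larger in narrow regions. The deposited values contain no 0, and the lowest step of each library was taken as 1 read. Whether it stands for 1 read or for a floor set in place of 0 cannot be read from the values. Of the narrow regions, 11694 (72.4%) stood at 1 read in no library and 249 did in all 14. Of the wide regions, 97.5% stood at 1 read in no library.

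Reactivated replicate 2 stood apart from its group in these regions. Its narrow regions stood at 1 read in 5.78% of cases, against 8.93% and 8.84% in Reactivated replicates 1 and 3 and 7.58% to 10.4% in the other 11 libraries. Across narrow regions its log2 levels had Pearson correlations of 0.26 and 0.34 with the other Reactivated libraries, which correlated at 0.50 with each other, and of -0.13 to -0.03 with the Basal libraries. In wide regions its correlations with the other Reactivated libraries were 0.64 and 0.74. Early replicate 2 had the highest share of reads in regions (27.8%, against 13.8% and 18.1% in Early replicates 1 and 3) and also stood apart. Mean levels of narrow regions and counts of calls are also given without each of these libraries. Most other results, among them those by width class and by chromosome, include both.

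Narrow regions stood below the typical region of the library in Late and above it in Basal. Their median level was 1.22, 0.868 and 1.10 in Early replicates 1, 2 and 3. In Late it was 0.941, 0.910, 0.892 and 0.928. Every Late library thus had its narrow regions below its typical region. In Reactivated it was 0.907, 1.13 and 0.816, and in Basal 1.18, 1.26, 1.27 and 1.22. All Basal libraries were above all Late and Reactivated libraries, while Early replicate 1 fell within the Basal range. Means over libraries were 1.06 ± 0.177 in Early (SD, n = 3), 0.918 ± 0.0218 in Late (n = 4), 0.951 ± 0.161 in Reactivated (n = 3) and 1.23 ± 0.0406 in Basal (n = 4). Without Reactivated replicate 2 the Reactivated mean was 0.862, and without Early replicate 2 the Early mean was 1.16.

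**Figure D1:**
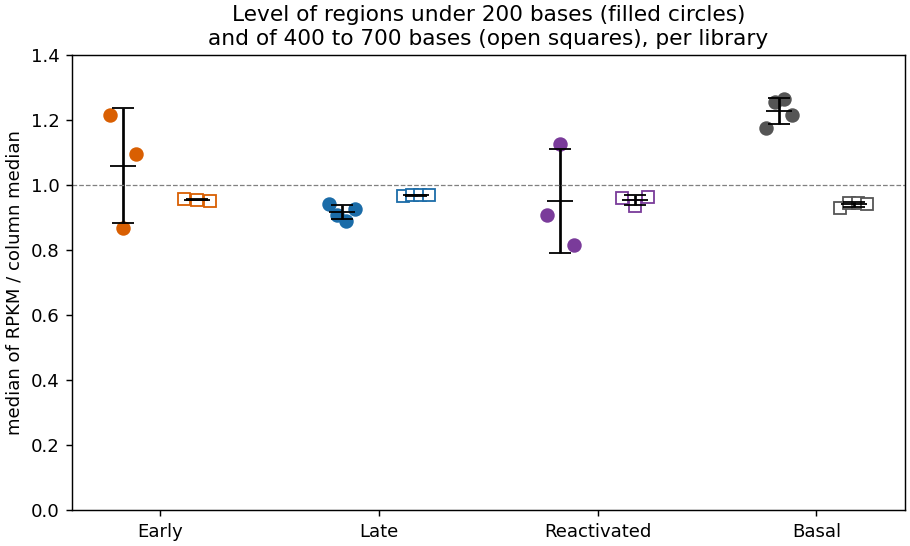
Median level (RPKM divided by the library's median RPKM, no unit) of the 16141 narrow regions and of the 55712 wide regions in each of the 14 libraries, by group, with the mean and SD of each group. The Basal libraries sit at 1.18 to 1.27 for narrow regions and the Late libraries at 0.892 to 0.941, while wide regions sit between 0.931 and 0.971 in all libraries.

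Wide regions did not show this order. Their median level was 0.955 ± 0.00205 in Early, 0.969 ± 0.00164 in Late, 0.954 ± 0.0145 in Reactivated and 0.941 ± 0.00669 in Basal. The ratio of the narrow to the wide median within a library was 0.918 to 0.973 in Late, against 1.26 to 1.34 in Basal. It was 1.27, 0.908 and 1.15 in the Early libraries and 0.945, 1.20 and 0.846 in the Reactivated libraries. These ratios are the same on the deposited scale.

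On the deposited scale it was the wide regions whose medians differed between Late and Basal. The median RPKM of narrow regions was 1.35 ± 0.132 in Early, 1.25 ± 0.0270 in Late, 1.34 ± 0.170 in Reactivated and 1.27 ± 0.104 in Basal, with overlap among all 4 groups. That of wide regions was 1.25 ± 0.347, 1.32 ± 0.0516, 1.35 ± 0.0756 and 0.971 ± 0.106 in the same order. A lower level of narrow regions against Basal is therefore a statement relative to the rest of the library. The share of reads in regions also varied. It was 13.8%, 27.8% and 18.1% in Early and 18.4%, 19.0%, 20.02% and 19.2% in Late. It was 21.3% to 24.0% in Reactivated and 13.2% to 19.3% in Basal, so that Late and Basal overlapped. Basal replicate 1, at 19.3%, had a narrow level of 1.18. Late replicates 1, 2 and 4, at 18.4%, 19.0% and 19.2%, had 0.941, 0.910 and 0.928, and Late replicate 3, at 20.02%, had 0.892. Within Early, the library with the highest share had the lowest narrow level and the one with the lowest share the highest. The same held within Basal and within Late. Within Reactivated, the library with the lowest share (21.3%) had the highest level (1.13), but the one with the highest share did not have the lowest. A fit with this share as a covariate is given with each comparison.

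The groups differed at the upper end of the narrow regions. Levels over 2 were held by 17.5% ± 6.02 of narrow regions in Early, 8.62% ± 0.292 in Late, 11.5% ± 2.77 in Reactivated and 25.9% ± 0.906 in Basal. In wide regions the shares were 6.71%, 4.44%, 7.71% and 5.28%. The 10th percentile of narrow regions was 0.168 ± 0.0476, 0.203 ± 0.00691, 0.206 ± 0.107 and 0.174 ± 0.0377, with overlap between Basal and each other group.

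The levels depended on width within the narrow class, and most so in Basal. The 541 regions of 83 to 119 bases had median levels of 2.43, 1.18 and 1.84 in Early, 1.16 to 1.25 in Late, 1.03 to 1.27 in Reactivated and 2.59 to 2.71 in Basal. At 180 to 199 bases (5008 regions) the means over libraries were 1.05, 0.932, 0.916 and 1.13. All 541 of the narrowest regions passed the filter on low values, against 79.0% at 120 to 139 bases. Just inside and just outside the limit of 200 bases, the 2508 regions of 190 to 199 bases and the 2633 of 200 to 209 bases had levels of 1.05 and 1.08 in Early, 0.932 and 0.964 in Late, 0.912 and 0.947 in Reactivated, and 1.14 and 1.13 in Basal. The limit cuts through a gradual change. Of the first 2 members at 190 bases, chr1:6831594-6831784 had 0.435 to 1.06 in Late and 1.47 to 2.83 in Basal, and chr1:10169723-10169913 had 0.170 to 0.899 in Late and 0.0819 to 0.799 in Basal. Of the first 2 regions at 200 bases, which are no members, chr1:20909875-20910075 had 1.16 to 2.22 in Late and 1.14 to 2.57 in Basal, and chr1:42914015-42914215 had 0.621 to 1.57 in Late and 0.233 to 0.954 in Basal.

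**Figure D2:**
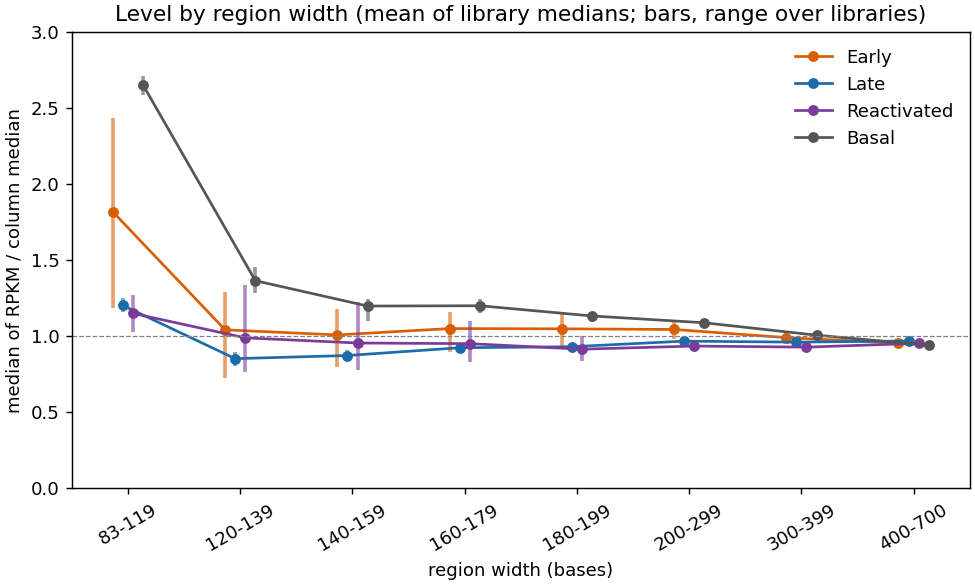
Median level by width class, up to 700 bases, for the 4 groups, as the mean of the libraries' medians with their range. Below 120 bases the Basal libraries sit at 2.59 to 2.71 and the Late libraries at 1.16 to 1.25, and at 400 to 700 bases the groups come together.

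A step at a width of 128 bases, noticed after the values were seen, runs through the narrow regions. The list holds 246 autosomal regions of 123 to 127 bases and 740 of 128 to 132 bases. At 1 single base, 52 regions were 127 bases wide and 152 were 128 bases wide. Over the same step the share of regions that passed the filter was 97.6% at 123 to 127 bases and 75.9% at 128 to 132, and the mean Basal level was 2.23 ± 0.160 and 1.14 ± 0.0758.

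Reactivated replicate 2 changed places at this step. It held the highest level of all 14 libraries in 1 of the 246 regions of 123 to 127 bases and in 292 of the 740 regions of 128 to 132 bases (39.5%). Its median level was 0.999 below the step and 1.49 above it, while Reactivated replicates 1 and 3 had 1.32 and 1.01 below and 0.756 and 0.697 above. At 128 to 132 bases it stood at 1 read in 1.76% of regions, and the other 13 libraries in 8.24% to 14.2%. Over all narrow regions it was the highest library in 3132 (19.4%), against 5.50% of wide regions.

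**Figure D3:**
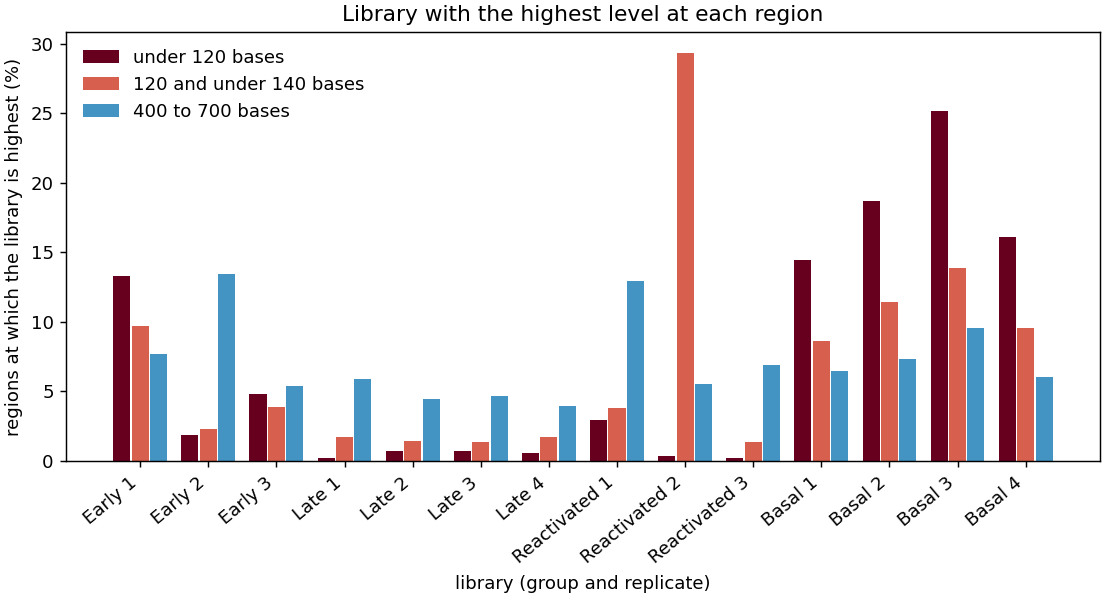
Percent of regions (bars) in which each of the 14 libraries (horizontal axis) held the highest level, for regions under 120 bases, for those of 120 and under 140 bases and for wide regions. Reactivated replicate 2 is highest in 0.370% of regions under 120 bases, in 29.4% at 120 to 139 bases and in 5.50% of wide regions.

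By group, the highest library of a narrow region was an Early one in 3231 regions, a Late one in 11.8%, a Reactivated one in 27.3% and a Basal one in 40.9%. In wide regions a Basal library was highest in 29.4%. Under 128 bases (904 regions) a Basal library was highest in 636, or 70.4%, and a Reactivated one in 4.87%.

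The members of highest mean level over the groups lay on chromosomes 11 and 4. chr11:3060593-3060699 (106 bases) had levels of 23.2, 9.24 and 19.2 in Early, 11.5, 9.58, 4.89 and 9.08 in Late, 21.9, 16.4 and 12.3 in Reactivated and 17.6, 29.4, 33.4 and 22.1 in Basal. Its Late libraries lay below all Basal libraries and the other groups overlapped Basal. chr11:3074421-3074557 (136 bases) had group means of 10.5 ± 3.93, 6.39 ± 1.78, 10.9 ± 3.76 and 17.6 ± 4.98 in the same order. The narrowest member, chr8:82846116-82846199 (83 bases), had 5.75, 0.908 and 2.18 in Early, 0.399 to 1.75 in Late, 0.307 to 1.16 in Reactivated and 2.30 to 5.37 in Basal, from 2 to 26 reads.

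Libraries of one group agreed less well on narrow than on wide regions. The median SD of a region's log2(level + 0.5) within a group was 0.46 in Early, 0.34 in Late, 0.40 in Reactivated and 0.41 in Basal, against 0.27, 0.20, 0.23 and 0.25 in wide regions. Pearson correlations across narrow regions between libraries of a group were 0.09 to 0.38 in Early, 0.46 to 0.51 in Late, 0.26 to 0.50 in Reactivated and 0.51 to 0.54 in Basal. These are descriptions over regions that share libraries and depth.

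Group differences were fitted for all regions together with limma on log2(level + 0.5), where the added 0.5 shrinks the changes of low regions. The filter, which left out the 10% of regions of lowest mean level, kept 13134 of the 16141 narrow regions (81.4%) and 50744 of the wide ones (91.1%). That mean is taken over all 14 libraries. A region can thus pass through high values in 1 group, so the calls are not independent of the filter. A region was called at an adjusted p under 0.05. The 3 comparisons with Basal share the Basal libraries, and are set side by side without a count of their overlap. Named regions also had groups without overlap. Among all regions tested, groups did not overlap in 12.0% higher and 11.4% lower in Early against Basal, 15.6% and 17.3% in Late against Basal, 15.4% and 14% in Reactivated against Basal, 7.62% and 7.65% in Late against Early, 13.8% and 9.48% in Reactivated against Early, and 12.0% and 6.28% in Reactivated against Late.

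Late against Basal asks how accessibility 5 days after the shock compares with the Basal nuclei, and gave the largest number of narrow calls. It is also the only comparison of 4 libraries with 4. Library totals were 46134255 to 47375214 in Late and 54266318 to 54269495 in Basal, without overlap, so total and group cannot be told apart. Of the narrow regions tested, 3876 (29.5%) were lower in Late and 1053 (8.02%) were higher, against 16.6% lower and 13.9% higher among all regions tested (30.5% in either direction, limma). In wide regions 13.4% were lower and 15.1% higher. The median log2 fold change was -0.37 in narrow, 0.04 in wide and -0.01 in all regions tested. Over all 16141 members, with none filtered, the median difference of group means was -0.21. It was 0.01 in the members that the filter left out. In a fit with no filter, 3694 of 16141 narrow regions were lower and 1050 higher. Of all 191271 regions in that fit, 28253 were lower and 26106 higher. On RPKM as deposited, 2207 narrow regions were lower and 1829 higher, with a narrow median of -0.10 beside a median shift of 0.27 over all regions. With the libraries' shares of reads in regions added as a covariate, 2573 were lower and 698 higher.

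**Figure D4:**
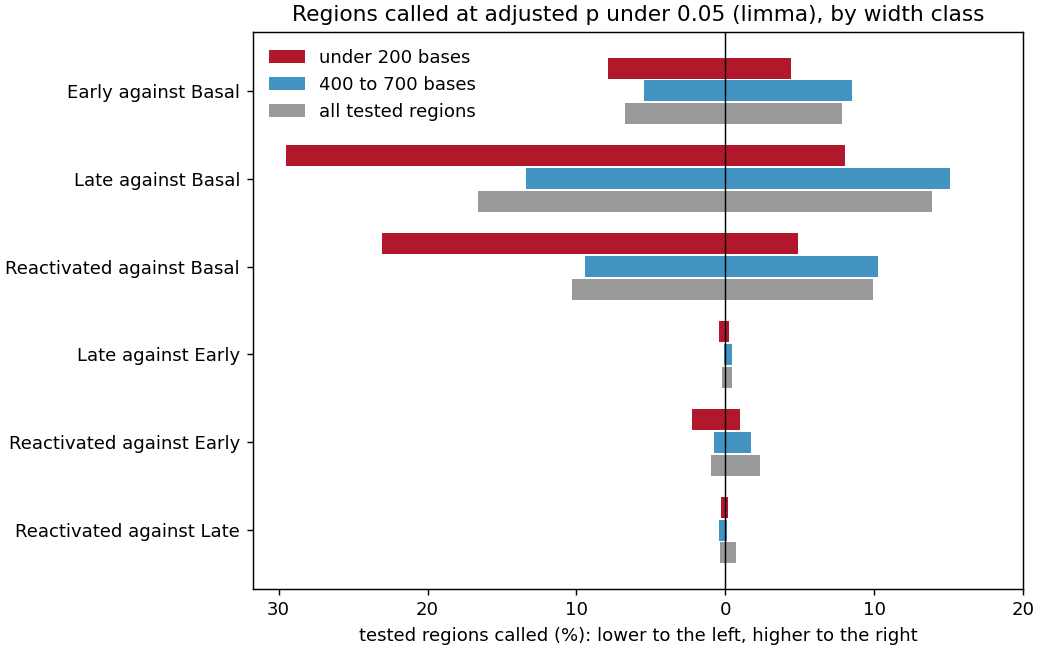
Percent of tested regions called lower and higher (limma, adjusted p under 0.05) in each of the 6 comparisons, for narrow, wide and all regions. Late against Basal and Reactivated against Basal have 29.5% and 23.1% of narrow regions lower, against 13.4% and 9.39% of wide regions.

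The largest decrease in Late against Basal was at a member of high level. chr4:20118982-20119116 (134 bases) had levels of 5.06, 4.93, 5.09 and 3.36 in Late and of 20.1, 26.9, 20.6 and 19.3 in Basal. The groups lay far apart, with 29 to 46 reads per library in Late and 136 to 190 in Basal. The log2 fold change was -2.12 ± 0.28 (SE, limma adjusted p = 0.000435), and -0.79 after quantile normalization (adjusted p = 0.0451). Its Early libraries had 25.2, 8.75 and 16.8 and its Reactivated libraries 16.1, 15.3 and 7.99, so that the Late libraries were also below both of these groups.

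chr6:137740652-137740745 (93 bases) had 0.534, 0.520, 0.319 and 0.334 in Late and 4.52, 2.24, 3.92 and 3.73 in Basal. The groups did not overlap, with 2 or 3 reads per library in Late, and the log2 fold change was -2.12 ± 0.31 (limma adjusted p = 0.000585). Its Early libraries had 0.592, 0.579 and 1.62 and its Reactivated libraries 1.98, 1.33 and 0.274, all below the lowest Basal library. chr17:78750191-78750357 had 0.187 to 1.34 in Late and 2.17 to 5.37 in Basal, and chr1:71077124-71077277 had 0.304 to 0.973 in Late and 2.91 to 4.22 in Basal. Both changed by over 1.9 on the log2 scale, at -1.96 ± 0.30 and -1.93 ± 0.32.

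Of the 4 named regions higher in Late, 3 held at most 8 reads in any Basal library. chr9:73926389-73926536 (147 bases) had 3.26, 2.08, 3.53 and 2.64 in Late and 0.317, 0.516, 0.138 and 0.826 in Basal, where it held 1 to 7 reads. The groups did not overlap, and the log2 fold change was 1.86 ± 0.28 (limma adjusted p = 0.000633). chr13:14990864-14991052 had 1.65 to 3.15 in Late and 0.101 to 0.539 in Basal, with a log2 fold change of 1.87 ± 0.28. chr1:97731374-97731504 had 3.18 to 3.65 in Late and 0.267 to 1.25 in Basal. At chr8:59363111-59363289 the Late libraries had 3.25 to 3.44 and the Basal libraries 1.92, 0.213, 0.114 and 0.390, with 22 reads in replicate 1, so that 1 Basal library stood well above the other 3. These 8 regions kept their calls in all alternatives run.

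The share of narrow regions that were lower in Late than in Basal grew as width fell. It was 56.7% (307 of 541) under 120 bases, 33.3% at 120 to 139 bases, 30.1% at 140 to 159, 27.7% at 160 to 179 and 25.5% at 180 to 199. The median log2 fold change was -0.93, -0.54, -0.42, -0.31 and -0.22 in the same classes. On either side of 128 bases it was -0.89 at 83 to 127 bases (898 tested) and -0.33 at 128 to 199 (12236 tested). The trend did not end at the limit of 200 bases. Of tested regions of 200 to 209 bases, 25.3% were lower in Late, with a median of -0.20. At 200 to 299 bases 22.4% were lower, and at 300 to 399 bases 18.4%.

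**Figure D5:**
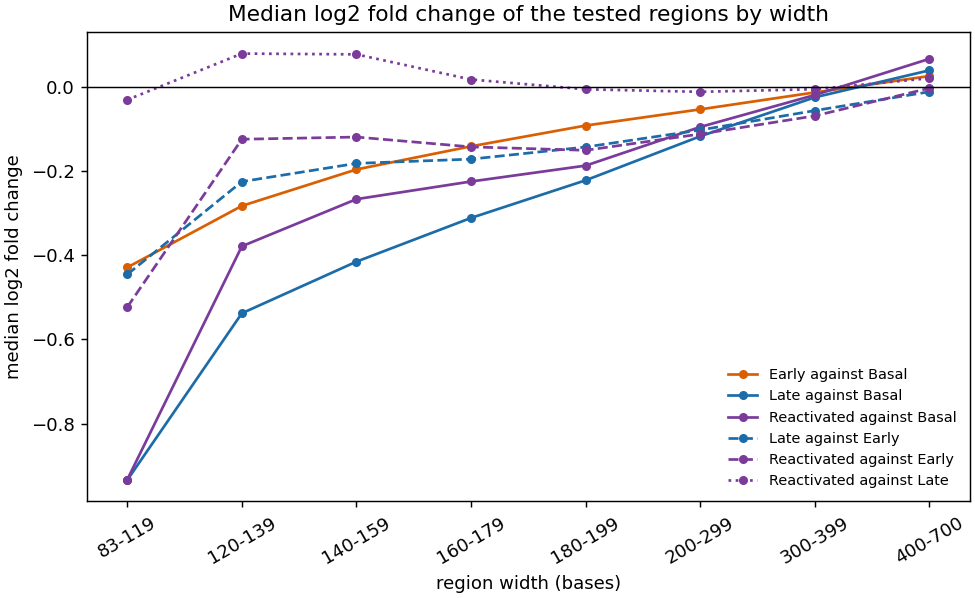
Median log2 fold change of tested regions (vertical axis) by width class in bases (horizontal axis), 1 line for each of the 6 comparisons. Late against Basal and Reactivated against Basal both stand at -0.93 under 120 bases and at 0.04 and 0.07 for wide regions, and Early against Basal stands at -0.43 under 120 bases.

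The excess over wide regions differed by level. Narrow regions were split into 3 equal bands by mean level over all 14 libraries. The Basal libraries enter that mean, so regions high in Basal are drawn to the upper bands and the bands are not independent of the calls. In the middle band (1.18 to 1.49), 34.4% of narrow and 11.5% of wide regions were lower in Late. The upper band had 37.0% and 8.33%. In the lowest band (0.654 to 1.18), 746 of 4378 narrow regions were lower and 14.7% of wide regions. Matched on reads rather than on level, regions of 20 to 30 mean reads had 18.5% lower among narrow and 17.3% among wide regions, and at 15 to 20 reads 31.7% of narrow and 114 of 570 wide regions were lower. The 1184 narrow regions at 20 to 30 reads had a median level of 1.95, against 0.824 for the wide ones, so the bands of reads and of level do not compare the same regions.

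Reactivated against Basal, which sets the nuclei collected after recall beside Basal, followed the same direction. Of the narrow regions tested, 3032 (23.1%) were lower in Reactivated and 643 (4.90%) were higher, against 10.3% lower and 9.91% higher among all regions tested (20.2% in either direction, limma). In wide regions the shares were 9.39% and 10.3%. The median log2 fold change was -0.28 in narrow, 0.07 in wide and 0.06 in all regions tested, and -0.12 over all members unfiltered. The members left out by the filter had 0.08. In a fit with no filter, 2769 of 16141 narrow regions were lower and 649 higher. Of all 191271 regions in that fit, 16904 were lower and 16936 higher. Under 120 bases, 249 of 541 regions (46.0%) were lower and 7 higher. Without Reactivated replicate 2, 2087 were lower and 414 higher and the narrow median was -0.36. Without Reactivated replicate 3, 1529 were lower and 337 higher.

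These calls were lost when the share of reads in regions entered the fit. With it as a covariate, 0 regions of any width were called in Reactivated against Basal (limma), and 2818 narrow regions had an unadjusted p under 0.05, beside 23792 of all regions tested. Shares were 21.3% to 24.0% in Reactivated and 13.2% to 19.3% in Basal without overlap, so the share and the group cannot be told apart here. On RPKM as deposited, 1863 narrow regions were lower and 1769 higher, with a narrow median of 0.04 beside a shift of 0.39 over all regions.

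chr10:124436193-124436298 (105 bases) had the largest decrease in Reactivated against Basal. Its levels were 0.702, 0.392 and 0.121 in Reactivated and 3.70, 3.25, 5.59 and 2.64 in Basal. The groups did not overlap, and Reactivated held 1 to 6 reads. The log2 fold change was -2.26 ± 0.29 (limma adjusted p = 0.00150, and 0.0893 with the covariate). Its Early libraries had 4.37, 1.54 and 2.88 and its Late libraries 1.26 to 2.07, which puts both groups above every Reactivated library. chr6:66656589-66656704 had 0.320, 0.953 and 0.222 in Reactivated and 3.25 to 4.62 in Basal, and chr2:60532756-60532891 had 0.546, 0.203 and 0.378 in Reactivated and 2.81 to 3.75 in Basal. chr1:102702981-102703102 had 0.508, 0.226 and 0.105 in Reactivated and 1.41 to 4.08 in Basal. The log2 fold changes of these 3 were -2.16, -2.11 and -2.12.

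Of the members that were higher in Reactivated, chr4:78882882-78883040 (158 bases) had 2.18, 1.91 and 3.55 in Reactivated and 0.394, 0.240, 0.513 and 0.220 in Basal. It held 2 to 4 reads per Basal library, the groups did not overlap, and the log2 fold change was 1.83 ± 0.25 (limma adjusted p = 0.00173, and 0.0981 with the covariate). chr16:85007653-85007813 had 3.38, 1.37 and 2.07 in Reactivated and 0.237 to 0.434 in Basal. Its Late libraries, at 1.81 to 3.33, were also above all Basal libraries. chr2:106057797-106057995 and chr10:39675069-39675231 had log2 fold changes of 1.58 ± 0.23 and 1.56 ± 0.24, from 2.28 to 5.02 and 1.78 to 2.35 in Reactivated and 0.471 to 1.15 and 0.117 to 0.864 in Basal. All 8 regions named for this comparison lost their call with the covariate and in no other alternative run.

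Early against Basal sets 2 groups with the same treatment label side by side. Of the narrow regions tested, 1035 (7.88%) were lower in Early and 578 (4.40%) were higher, against 6.76% lower and 7.82% higher among all regions tested (14.6% in either direction, limma). In wide regions the shares were 5.44% and 8.48%. The narrow share of lower calls was thus near that of all regions, while the narrow share of higher calls was below it. Median log2 fold changes were -0.17 in narrow, 0.03 in wide and -0.00 in all regions tested, and -0.12 over all members unfiltered. The members left out by the filter had -0.05. In a fit with no filter, 927 of 16141 narrow regions were lower and 512 higher. Of all 191271 regions in that fit, 11198 were lower and 13121 higher. Without Early replicate 2, 316 narrow regions were lower and 181 higher with a median of -0.06, and without Early replicate 1, 1770 were lower and 732 higher with a median of -0.26. On RPKM as deposited most calls had the other sign: 408 were lower and 898 higher, with a narrow median of 0.05 beside a shift of 0.23 over all regions. With the covariate 538 were lower and 332 higher, and a fit of these 2 groups alone gave 508 and 328.

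The lower members in Early against Basal included several of chromosome 7. At chr7:51614856-51615006 (150 bases), 312 bases from the nearest listed region, levels were 0.367, 0.502 and 0.705 in Early and 3.73, 3.41, 2.70 and 3.82 in Basal, with a log2 fold change of -1.94 ± 0.19 (limma adjusted p = 0.000672). The Late libraries, at 0.662 to 1.14, overlapped Early at their low end, the Reactivated ones were at 0.731 to 1.36, and all 3 groups lay below every Basal library. chr7:148748905-148749022 had 0.314, 0.092 and 0.516 in Early and 2.27 to 4.33 in Basal, with 1 to 4 reads in Early. chr7:30102705-30102868 had 0.132 to 1.02 in Early and 2.21 to 4.97 in Basal. At chr1:75500320-75500435 the Early libraries had 0.468 to 0.798 and the Basal libraries 2.14 to 5.43. On chromosome 7 as a whole 60 of 259 narrow regions tested (23.2%) were lower in Early, with a median of -0.40, and the wide regions of that chromosome had a median of -0.44. Narrow and wide regions of chromosome 7 thus lay near each other. On chromosome 17, 42 of 244 (17.2%) were lower, with a median of -0.30, and the wide regions of that chromosome had -0.18. Calls of wide regions were not counted by chromosome.

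Members that were higher in Early than in Basal had their highest level of all 14 libraries in Early replicate 2 at each of the 4 named. chr4:88739294-88739481 (187 bases) had 2.65, 7.42 and 2.75 in Early and 1.08, 1.32, 0.650 and 0.835 in Basal, with a log2 fold change of 1.58 ± 0.30 (limma adjusted p = 0.00530). The groups did not overlap, and reads ran from 27 to 129 in the Early libraries. chr6:67181065-67181202 had 2.81, 4.95 and 2.65 in Early and 0.148 to 1.38 in Basal. chr13:14990864-14991052 had 1.07, 3.26 and 2.17 in Early, above all Basal libraries. The same holds for chr8:59363111-59363289, at 2.68, 3.51 and 2.29 in Early. The 8 regions named for Early against Basal kept their calls in all alternatives run.

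Late against Early compares day 5 with day 0 and gave few calls. Library totals were 46134255 to 47375214 in Late and 54257748 to 54261752 in Early, so total and day cannot be told apart. Of the narrow regions tested, 59 (0.449%) were lower in Late and 35 (0.266%) higher, against 0.233% lower and 0.426% higher among all regions tested (0.659% in either direction, limma). In wide regions the shares were 0.106% and 0.422%. The median log2 fold change was -0.18 in narrow and -0.01 in wide regions, and -0.10 over all members unfiltered. The members left out by the filter had 0.07. Without 1 Basal or Reactivated library the count was 66 to 101. Leaving out 1 Early or Late library moved the count by over 1.5 times. It came to 1114 in all without Early replicate 2 (917 lower, 197 higher). It was 14 without Early replicate 3 (3 lower, 11 higher) and 52 without Early replicate 1 (25 lower, 27 higher). Without Late replicates 1 to 4 it was 35, 10, 23 and 12, and lower calls were the more numerous only without replicate 1. A fit of these 2 groups alone called 7 (2 lower, 5 higher), and the covariate 676 (542 lower, 134 higher).

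At chr3:146926536-146926631 (95 bases) levels were 0.174, 0.509, 0.936 and 0.817 in Late and 4.05, 1.93 and 3.18 in Early. The groups did not overlap, and the log2 fold change was -1.69 ± 0.26 (limma adjusted p = 0.0115, and at most 0.0636 in the alternatives). Its Basal libraries, at 3.11 to 4.05, overlapped Early, and its Reactivated libraries, at 0.721 to 1.48, overlapped Late. chr2:109778902-109779010 showed the same arrangement, with 0.412 to 1.07 in Late, 1.89 to 5.60 in Early, 0.455 to 1.02 in Reactivated and 1.73 to 4.34 in Basal. Higher in Late was chr5:150823513-150823679, with 2.89, 2.14, 2.32 and 2.90 in Late and 0.331, 0.583 and 1.09 in Early (log2 fold change 1.43 ± 0.27, limma adjusted p = 0.0270). chr7:148748905-148749022 was also higher, at 1.13 to 2.65 in Late. Each of these 4 lost its call in 2 to 8 of the alternatives run.

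Reactivated against Early compares nuclei after recall with those of day 0. Of the narrow regions tested, 298 (2.27%) were lower in Reactivated and 127 (0.967%) higher, against 0.947% lower and 2.31% higher among all regions tested (3.25% in either direction, limma). In wide regions 0.790% were lower and 1.71% higher, so that higher calls were the more numerous there. Without Early replicate 2, lower calls outnumbered higher ones in both classes, with 1377 and 317 in narrow and 2351 and 2050 in wide regions. With the covariate, 128 narrow regions were lower and 84 higher. The median log2 fold change was -0.15 in narrow and -0.00 in wide regions tested, and -0.05 over all members unfiltered, where the members left out by the filter had 0.14. Counts in all were 13, 1694 and 121 when Early replicates 1, 2 and 3 were left out in turn, and 26, 182 and 152 without Reactivated replicates 1, 2 and 3. They were 273 and 266 without Late replicates 3 and 4. A fit of these 2 groups alone called 0, with 3018 narrow regions at an unadjusted p under 0.05, and the fit with a replicate block called 118.

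chr10:80635955-80636100 (145 bases) had 6.44, 3.31 and 4.22 in Reactivated and 0.633, 0.965 and 1.56 in Early, without overlap. The log2 fold change was 1.73 ± 0.25 (limma adjusted p = 0.00808). Its Late libraries had 1.64 to 2.89 and its Basal libraries 3.11 to 3.65, so Early was the lowest group. Lower in Reactivated were chr10:124436193-124436298, at 0.121 to 0.702 against 1.54 to 4.37 in Early, and chr12:15854366-15854471, at 0.351, 0.131 and 0.729 in Reactivated and 4.89, 1.54 and 1.73 in Early (log2 fold change -1.74 ± 0.40, limma adjusted p = 0.0301, and at most 0.156 in the alternatives). chr7:148748905-148749022 was higher, at 1.53 to 2.73 in Reactivated. Each of the 4 lost its call in the fit of these 2 groups alone.

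Reactivated against Late compares recall with no recall, but the groups also differ in other ways. Late was collected on day 5 and Reactivated on days 5, 6 and 7, library totals were 54257224 to 56251679 in Reactivated and 46134255 to 47375214 in Late, and their shares of reads in regions did not overlap, so that these and recall cannot be told apart. Among tested narrow regions, 42 (0.320%) were lower in Reactivated and 24 (0.183%) higher, against 0.36% lower and 0.688% higher among all regions tested (1.05% in either direction, limma). In wide regions the shares were 0.394% and 0.130%. Median log2 fold changes were 0.03 in narrow, 0.02 in wide and 0.05 in all regions tested, and 0.03 over all members unfiltered. With the covariate the balance turned in narrow regions, where 33 were lower and 71 higher with a median of 0.11, beside 158 lower and 72 higher wide regions with a median of 0.00. Leaving out any Late or Reactivated library gave 9 to 15 calls, and leaving out Early replicates 1, 2 and 3 gave 139, 122 and 42. On RPKM as deposited 27 were lower and 11 higher, and a fit of these 2 groups alone called 315.

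1 of the 8 regions named for Reactivated against Late kept its call in all alternatives run. chr12:70575979-70576133 (154 bases) had 0.558, 0.445 and 0.331 in Reactivated and 2.04, 2.09, 2.21 and 1.81 in Late. The groups did not overlap, and the log2 fold change was -1.43 ± 0.18 (limma adjusted p = 0.00283, and at most 0.0300 in the alternatives). Its Early libraries had 0.596, 0.489 and 1.08 and its Basal libraries 1.71 to 2.37, so that the order of the groups was low, high, low and high in Early, Late, Reactivated and Basal. The nearest listed region lay 10829 bases away.

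The other lower members in Reactivated against Late were chr5:90896370-90896560, with 0.433 to 0.776 in Reactivated and 2.09 to 2.96 in Late, chr10:37960233-37960396, with 0.301, 1.26 and 0.313 in Reactivated and 2.10 to 3.17 in Late, and chr12:92442904-92443044, with 0.176 to 0.820 in Reactivated and 1.84 to 3.66 in Late. Higher in Reactivated was chr15:71473063-71473210, with 2.59, 2.24 and 2.26 in Reactivated and 0.403 to 1.10 in Late (log2 fold change 1.25 ± 0.26, limma adjusted p = 0.0316). chr2:153633318-153633416 had 5.27, 2.80 and 3.51 in Reactivated and 1.15 to 1.51 in Late. chr16:23890791-23890929 had 1.48 to 2.49 in Reactivated and 0.117 to 0.967 in Late. The high member chr4:20118982-20119116 was higher as well, with a log2 fold change of 1.37 ± 0.30 (limma adjusted p = 0.0382, and 0.634 after quantile normalization). These 7 lost their call in 9 to 13 of the 26 or 27 alternatives run.

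Comparisons that share no library could be set against each other. Both comparisons of a pair come from 1 fit, whose variance per region is taken over all 14 libraries, so their lists are not independent. Of the 3876 narrow regions lower in Late against Basal, 163 were also lower in Reactivated against Early (4.21% of the first list and 54.7% of the 298 in the second), and 22 were called in the opposite direction. Of the 3032 lower in Reactivated against Basal, 36 were lower in Late against Early (1.19% and 61.0% of the 59). Of the 1035 lower in Early against Basal, 8 were lower in Reactivated against Late (0.773% and 19.0% of the 42). In wide regions the first pair shared 2.30% and 38.9%. These shares are to be read beside those of all regions tested. Of all narrow regions tested, 29.5%, 23.1% and 7.88% were lower in the first comparison of each pair, and 8.02%, 4.90% and 4.40% higher. Of all wide regions tested, 13.4% were lower in Late against Basal. Among higher calls, the first pair shared 14 (1.33% of 1053 and 11.0% of 127) with 9 in the opposite direction, the second pair 5 (0.778% of 643 and 14.3% of 35) with 0 opposite, and the third pair 0 of 578 and 24 with 7 opposite.

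Distances between listed regions were close for narrow and wide regions. The median distance to the nearest other listed region was 3207 bases for narrow and 3177 for wide regions, and 19.8% and 18.2% had a neighbour within 1000 bases. Narrow regions made up 7.70% (chromosome 11) to 10.4% (chromosome 7) of the regions of an autosome. In Late against Basal, 35.2% of tested narrow regions with a neighbour within 1000 bases were lower, 29.8% with the nearest at 1000 or more and under 10000 bases and 19.4% with the nearest at 10000 bases or more. Wide regions showed the same order at lower shares, with 18.8%, 12.8% and 8.96%, and so did all regions tested, with 21.8%, 16.1% and 12.9%. The neighbours within 1000 bases of the lower ones had a median log2 fold change of -0.12, and 58.8% of them were below 0. The neighbours of all narrow regions in that distance class had a median of -0.05, and neighbours of the lower ones in the other distance classes had -0.07 and -0.05.

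By chromosome, the median of narrow regions was below that of wide regions on 19 of 19 autosomes in Late against Basal, Reactivated against Basal, Late against Early and Reactivated against Early, on 18 of 19 in Early against Basal and on 6 of 19 in Reactivated against Late. In Late against Basal the narrow median ran from -0.57 on chromosome 3, where 470 of 1227 tested (38.3%) were lower, to 0.01 on chromosome 9, where 87 of 542 (16.1%) were lower. The wide medians of these chromosomes were 0.02 and 0.17. On chromosome 16 the narrow median was -0.04, with 73 of 398 lower and 70 higher, and the wide median was 0.17.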

How the data were processed

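ATAC-seq of 14 libraries gave 1 deposited table of RPKM values for 191271 regions, per the file headers. The authors' RPKM scaled reads by region length and library total; Bowtie2 2.0, SAMtools, MACS2, DiffBind, DESeq2 and mm9 are named per the submitters' processing notes, with no role or order. Whether regions were called per library, duplicates removed or cut positions shifted is a step not given in the sources used here; such steps set region borders and reads in narrow regions. RPKM times width gave whole multiples of 1 step per library (100% within 0.01), so reads were recovered; intervals from them would cover counting error only. From the deposited values were computed levels (RPKM over the column median) and log2(level + 0.5), fitted with limma 3.58.1 (R 4.3.3; trend, robust, group means, all 14 libraries, 10% of regions of lowest mean left out, 172143 tested, 2-sided, Benjamini-Hochberg per comparison, threshold 0.05). Errors are SD over libraries or limma's moderated SE. The code of the fit was checked on simulated reads with set changes in Late and 1 dispersion for all regions. Libraries differed there only in size, so the check does not bear on the calls reported. Python 3.11.15 with pandas 2.3.3, numpy 2.4.6 and matplotlib 3.10.9 did the rest.

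The narrow regions, the lists and the tests were chosen with earlier results of these data known. To be named, a region had to pass the threshold, show no overlap of its 2 groups and exceed the tested narrow regions' median in mean log2 value; of these, 4 with the largest rise and 4 with the largest fall were taken in the comparisons with Basal and in Reactivated against Late, 2 and 2 in the others, and also the 3 members of highest level, the narrowest, and the first at each side of 200 bases (in the table, at 190 and 200 bases). Alternatives covered scaling, pseudocount, filter, replicate block, samples in the fit, covariate and leaving out each library. Same-numbered libraries did not deviate together (r -0.27 to 0.06 over 19 pairs, all regions), so replicate numbers were taken as names. Names and sequences at hand are on GRCm38, not mm9, so gene markers, motifs and sequences were not used here.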

Additional observations from a re-analysis of the deposited data

Results flagged for a closer look

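Over 96 sets of 4 libraries (Late or Basal, at named regions and in measures of the narrow regions), 7 had 1 library far from the other 3 by Dixon's criterion, and chance alone is known to give such gaps in about 1 of 20 groups. In Late, chr4:20118982-20119116 had its lowest library at 3.36 (replicate 4), with 4.93 to 5.09 in the other 3. chr10:80635955-80636100 stood at 1.64 in Late replicate 3, against 2.85 to 2.89 in the other 3. chr12:92442904-92443044 stood at 3.66 in Late replicate 4, against 1.84 to 2.13. chr1:10169723-10169913, which did not pass the filter on low values, stood at 0.170 in Late replicate 2, against 0.858 to 0.899. In Basal, chr8:59363111-59363289 stood at 1.92 in replicate 1, against 0.114 to 0.390, chr4:20118982-20119116 at 26.9 in replicate 2, against 19.3 to 20.6, and chr12:15854366-15854471 at 4.00 in replicate 1, against 1.54 to 1.65.

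Regions under 200 bases outside the autosomes were not members and were counted in neither the narrow nor the wide class. They did enter the library medians and, where they passed the filter, the fit over all regions. The 482 on X had median levels of 0.415 to 0.578 in Early, 0.504 to 0.646 in Late, 0.435 to 0.911 in Reactivated and 0.312 to 0.362 in Basal, so that the lowest library of each of the other groups (0.415, 0.504 and 0.435) was above the highest Basal library. The highest of all was Reactivated replicate 2, at 0.911. Among the 6 on unplaced sequence, each Late library had 2 with over 1 read, while the Early, Reactivated and Basal libraries had 0.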

How the results depend on the processing

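No named region was reversed in any alternative run. The balance of calls was: in Early against Basal on RPKM as deposited, 408 narrow regions were lower and 898 higher, and in Reactivated against Late with the covariate, 33 and 71. In Late against Early it turned to 2 lower and 5 higher with these 2 groups alone. It also turned to 25 and 27 without Early replicate 1 and to 3 and 11 without Early replicate 3. Without Late replicates 2 and 3 it was 4 and 6, and 11 and 12. The small difference of medians in Reactivated against Late (0.01) also changed sign, at -0.01 after quantile normalization, -0.03 with 30% of regions left out, -0.01 with precision weights and -0.05 without Reactivated replicate 2. Of 168 values recomputed under alternatives other than leaving out a library, 132 stayed within the set limits and 36 moved beyond them, and of 182 with a library left out, 154 stayed and 28 moved. Where a count moved, the cause was not tested. In Early against Basal, 836 narrow regions were called with these 2 groups alone and 870 with each library's share of reads as a covariate, beside 1613 in the fit reported. In Late against Basal the covariate gave 3271, beside 4929, and in Reactivated against Basal 0, beside 3675. In Late against Early (94) quantile normalization gave 313, these 2 groups alone 7, the covariate 676 and precision weights 27. In Reactivated against Early (425) the same settings gave 280, 0, 212 and 155. In Reactivated against Late (66) RPKM as deposited gave 38, these 2 groups alone 315, the covariate 104 and precision weights 39.

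The narrow minus wide difference of medians in Late against Basal (-0.41) was -0.39 after quantile normalization, -0.55 with a pseudocount of 0.1, -0.32 with a pseudocount of 1, -0.26 with no filter, -0.45 with 30% of regions left out, -0.30 with the covariate and -0.58 with precision weights. In Reactivated against Basal (-0.34) it was -0.46 with a pseudocount of 0.1, -0.19 with no filter, -0.16 with the covariate and -0.51 with precision weights. The mean level in Late was 0.893 for regions under 150 bases, 0.940 under 250 bases and 0.947 relative to the median of wide regions, and in Basal 1.43, 1.17 and 1.31.

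With each library left out in turn, calls were 497 to 2502 in Early against Basal, 3783 to 5442 in Late against Basal, 1866 to 4341 in Reactivated against Basal, 10 to 1114 in Late against Early, 13 to 1694 in Reactivated against Early and 9 to 139 in Reactivated against Late. Differences of medians were -0.30 to -0.09, -0.43 to -0.39, -0.45 to -0.27, -0.29 to -0.08, -0.25 to -0.07 and -0.05 to 0.06 in the same order. Mean levels were 0.982 to 1.16 in Early, 0.910 to 0.926 in Late, 0.862 to 1.02 in Reactivated and 1.22 to 1.25 in Basal.

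With the replicate number as a block, the counts were 1181, 4860, 3283, 17, 118 and 10 in the order above. In 0 of 14 libraries was the deviation from the group mean closest to that of the same number in other groups, so the numbers are not shown to pair libraries. The planned quasi-likelihood count test was not run, since the values are deposited as RPKM; limma with voom precision weights on recovered reads and leaving out regions at 1 read were added after seeing the data. At 9 to 13 reads for the median narrow region, differences in single members are limited by counting error.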
